A study of Mus musculus with 37 samples.

Results

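The 41 genes described here make up the route from glucose to lactate, the pentose phosphate pathway that branches off it, and the core of the hypoxia-inducible factor 1 (HIF-1) programme. They were listed by name and pathway, and all 41 were found among the 24016 genes of the expression table. By role they comprised Hif1a and 2 HIF prolyl hydroxylases, 3 transporters of glucose and lactate, 3 hexokinases, 7 genes of upper glycolysis, 2 PFKFB regulators, 7 genes of lower glycolysis with lactate dehydrogenase and Pdk1, 4 genes of the oxidative and 4 of the non-oxidative pentose phosphate branch, and 8 further HIF-1 targets.

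Gene expression was measured by polyA RNA-seq in bone marrow-derived macrophages (BMDMs) of WT C57BL/6J mice and of Arntl-/- mice, which lack Bmal1, the core activator of the circadian clock. The paper describes the Arntl-/- mice as made on a C57BL/6 background. Its results call the WT mice littermate controls, while its methods name C57BL/6J mice of a supplier. The mice were male and 6 to 9 weeks old. Marrow cells of both genotypes were cultured for 6 days with M-CSF, the growth factor that drives macrophage differentiation. Both were then treated for 0, 6, 24 or 48 h with Kdo2-lipid A (KLA), the substructure of lipopolysaccharide that activates TLR4. Arntl was deleted in the whole animal rather than in macrophages alone, so the marrow had also developed without it. Each of the 8 conditions was 1 library, so no difference between conditions could be set against the spread between replicates and no test was made.

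Macrophages activated through TLR4 are known to take up more glucose and to turn it to lactate even where oxygen is present. HIF-1 alpha, the regulated subunit of HIF-1, is a transcription factor that prolyl hydroxylases mark for degradation in the presence of oxygen. When it is stable it pairs with ARNT, binds the letters ACGTG or GCGTG and drives genes of glycolysis, lactate export, angiogenesis and mitophagy. Bmal1 belongs to the same family of basic helix-loop-helix PAS proteins, and with CLOCK it binds the E-box CACGTG. The pentose phosphate pathway supplies NADPH, which the phagocyte oxidase and glutathione reduction consume, and ribose for nucleotides. The letters ACGTG are held within the E-box, so the same stretch of promoter can match both factors.

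The promoters of the members were searched for these letters. Promoter sequences, each running from 250 bases before a RefSeq start site to 50 after it on GRCm38.p6, were found for 39 of the 41 members and for 27025 genes in all. Where a gene had several starts, a match at any of them was counted once. Bnip3l and Ndrg1 had no entry. On either strand, CACGTG occurred in a promoter of 6 of the 39 members (15.4%) and of 8.09% of all genes. ACGTG outside CACGTG occurred in 22 members (56.4%) and in 15.3% of all genes. GCGTG occurred in 28 members (71.8%) and in 35.2% of all genes. The members had more starts per gene, 53 promoters for 39 members against 32851 for 27025 genes. Counted per promoter, the shares were 11.3% against 7.15% for CACGTG, 45.3% against 13.6% for ACGTG outside it and 62.3% against 32.4% for GCGTG. These shares describe letters only, without regard to base composition, and a match is not a binding site. Some members were listed because they are HIF-1 targets, and the genes in all were not limited to those expressed in these cells. No enrichment is therefore read from the shares. The 6 members with CACGTG were Hif1a, Pfkfb3, Pfkm, Ldha, Bnip3 and Slc16a1. Their matches are shown because the E-box is the sequence bound by the factor deleted here, and capitals mark the match.
Hif1a at 135 bases before the start, chr12:73907712-73907757, plus strand: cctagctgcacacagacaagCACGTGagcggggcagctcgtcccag
Pfkfb3 at 53 bases before the start, chr2:11502118-11502163, minus strand: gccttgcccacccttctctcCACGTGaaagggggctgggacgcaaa
Pfkm at 136 bases before the start, chr15:98092433-98092478, plus strand: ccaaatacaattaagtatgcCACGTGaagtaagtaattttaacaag
Ldha at 145 bases before the start, chr7:46845639-46845684, plus strand: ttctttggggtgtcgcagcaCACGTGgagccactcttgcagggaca
Ldha at 48 bases before the start, chr7:46845736-46845781, plus strand: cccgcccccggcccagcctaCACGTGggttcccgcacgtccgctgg
Bnip3 at 108 bases before the start, chr7:138909589-138909634, minus strand: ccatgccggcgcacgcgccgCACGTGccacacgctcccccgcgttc
Slc16a1 at 200 bases before the start, chr3:104638444-104638489, plus strand: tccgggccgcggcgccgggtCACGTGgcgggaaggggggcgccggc

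The next matches are examples of ACGTG outside CACGTG, chosen from 1 regulator, 1 transporter and 1 abundant enzyme described below, together with the second match of Hif1a. Capitals again mark the match. Slc16a3 holds a further ACGTG and Pgk1 a further match on the other strand, both left in lower case within the same window. Other members described below, among them Hk2, Slc2a1 and P4ha2, also held ACGTG upstream of a start and are not shown. Vegfa held ACGTG only at a start inside the gene, which is not shown.
Hif1a at 70 bases before the start, chr12:73907777-73907821, plus strand: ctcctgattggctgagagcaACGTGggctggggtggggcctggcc
Egln3 at 229 bases before the start, chr12:54204079-54204123, minus strand: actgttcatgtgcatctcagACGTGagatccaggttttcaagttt
Slc16a3 at 27 bases before the start, chr11:120949020-120949064, plus strand: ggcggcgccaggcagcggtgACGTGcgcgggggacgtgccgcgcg
Pgk1 at 150 bases before the start, chrX:106186930-106186974, plus strand: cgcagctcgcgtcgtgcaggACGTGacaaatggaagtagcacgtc

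Values are FPKM divided by a size factor for each library and are called scaled FPKM. A member was counted as higher or lower when 2 libraries differed at least 1.5-fold on the scale of log2(scaled FPKM + 0.1). Of the 41 members, 39 passed the filter of a mean of 50 scaled reads, as did 9897 genes in all. Adm and Ldhb did not pass. Intervals given with log2 ratios are at the 95% level and cover the counting of fragments only, not the variation between cultures or mice.

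Depth moved with level in these libraries. They held between 8587560 and 27036786 tags (mapped read ends) on genes, with the most in WT at 6 h and the fewest in Arntl-/- at 48 h. The authors counted at most 3 tags at any position, and across the 989 genes with the highest levels the median deviation from the mean of the 8 libraries was -0.36 log2 in the deepest library and 0.30 and 0.25 in the 2 shallowest. Of the 39 members, 14 were among those genes, such as Gapdh with 8.61 tags per base of exon in WT at 6 h. Values corrected for this relation by a smooth curve of deviation on level are called level-corrected. They are therefore given beside a part of the ratios of abundant genes, not beside all. With 1 library per condition, an effect of depth cannot be told apart from one of genotype or time. Arntl itself had 11.3 to 20.2 scaled FPKM in the 4 Arntl-/- libraries and 32.3 to 38.7 in the 4 WT libraries, so the genotypes did not overlap, although reads remained on the gene.

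The 8 defining macrophage markers, including Csf1r and Cd68, were detected in all 8 libraries. They summed to 20160.6, 15087.7, 26634.7 and 37621.3 scaled FPKM in WT at 0, 6, 24 and 48 h and to 16992.1, 20359.6, 24967.2 and 33589.7 in Arntl-/-. Markers of lymphocytes, erythroid cells, dendritic cells and mast cells summed to at most 14.3 scaled FPKM in any library, endothelial markers summed to 12.1 to 34.6, and Mpo and Elane, of granulocyte precursors, were at 6 tags or fewer. The 8 fibroblast and stromal markers summed to 548 to 1441 in WT and 397 to 808 in Arntl-/-. The top sum was at 48 h in both genotypes, and the sum was higher in WT at each time. Not every gene of this list shared that order. Dcn was higher in Arntl-/- at 0, 24 and 48 h, with 91.3 against 62.3 in WT at 48 h. Lum, at low levels, was higher in Arntl-/- at 0, 6 and 48 h. The neutrophil markers that were detected, led by S100a8 and S100a9, summed to 528 to 928 in WT and 860 to 1033 in Arntl-/-. The sum was higher in Arntl-/- at each time, but at 48 h only 943 against 928 in WT. S100a8 and S100a9 were both higher in Arntl-/- at 0 and 6 h. S100a8 was lower there at 24 h (410.6 against 428.9) and 48 h (905.3 against 910.3), and S100a9 at 48 h (9.0 against 10.1). S100a8 was highest and S100a9 lowest at 48 h in both genotypes. The part of these markers and cells in the values below was not tested. In such bulk samples fewer cells of a type and less RNA per cell cannot be told apart.

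Hif1a and the prolyl hydroxylases, which set the supply and the turnover of HIF-1 alpha, stood at the head of the programme. Hif1a (chr12:75008854-75048517, mm9) had 253.6, 275.1, 480.6 and 460.7 scaled FPKM in WT at 0, 6, 24 and 48 h, and 274.2, 293.2, 515.6 and 563.2 in Arntl-/-. Gene coordinates are those of the whole gene on mm9, here and below. Both genotypes were flat to 6 h and higher at 24 and 48 h, and the Arntl-/- value was the higher of the pair at each time. The excess was small, at 0.11, 0.09, 0.10 and 0.29 log2, and the counting interval lay above 0 only at 48 h (0.11 to 0.47). With level correction the value at 6 h was -0.05. From 0 to 24 h Hif1a was 1.89-fold higher in WT and 1.88-fold higher in Arntl-/-, so the step up had nearly the same size in both.

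Egln3 (chr12:55279968-55304861) encodes PHD3, a prolyl hydroxylase that is itself a HIF-1 target. It had 117.3, 178.4, 196.2 and 315.9 scaled FPKM in WT and 157.2, 202.3, 282.1 and 481.6 in Arntl-/-. Its level was higher at each later time in both genotypes, and higher in Arntl-/- than in WT at each time. The log2 ratios of Arntl-/- to WT were 0.42, 0.18, 0.52 and 0.61 in order of time. The interval was -0.06 to 0.42 at 6 h and 0.34 to 0.88 at 48 h. Egln1, which encodes the main oxygen-sensing hydroxylase PHD2, stayed between 151.0 and 224.0 in all 8 libraries. Egln1 was above Egln3 only in WT at 0 h, and at 48 h Egln3 was 1.84-fold above Egln1 in WT and 2.26-fold in Arntl-/-.

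The transporters diverged after KLA. Slc16a3 (chr11:120810381-120820314) encodes MCT4, the lactate exporter of glycolytic cells, and had 506.3, 471.8, 765.7 and 1024.9 scaled FPKM in WT and 422.2, 605.3, 798.4 and 1172.2 in Arntl-/-. Slc16a1 (chr3:104442587-104462385) encodes MCT1, which carries lactate and pyruvate either way, and had 97.9, 69.6, 50.2 and 25.4 in WT and 80.5, 56.7, 42.4 and 35.4 in Arntl-/-. The exporter was highest and Slc16a1 lowest at 48 h in both genotypes. At 48 h Slc16a3 was 2.02-fold higher than at 0 h in WT and 2.78-fold higher in Arntl-/-, or 1.72-fold and 2.19-fold with level correction. Slc16a1 was 3.84-fold lower in WT and 2.27-fold lower in Arntl-/-. The ratio of Slc16a3 to Slc16a1 per length was 5.17 at 0 h and 40.3 at 48 h in WT, against 5.24 and 33.1 in Arntl-/-. Slc16a1 was the only member of the 39 that was at least 1.5-fold lower at 24 or 48 h in either genotype. Slc16a1 carries CACGTG, as do Hif1a, Pfkfb3, Pfkm, Ldha and Bnip3, whose values were higher at 48 h than at 0 h in both genotypes. The Arntl-/- value of Slc16a1 was below WT at the first 3 times and above it at 48 h, where only 150 and 201 tags were counted and the interval of the log2 ratio was -0.31 to 1.29. Slc2a1, which encodes the glucose transporter GLUT1, ranged from 529.7 to 928.8, and at 48 h it was 1.67-fold higher than at 0 h in WT and 1.73-fold in Arntl-/-, or 1.42-fold and 1.37-fold with level correction.

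**Figure D1:**
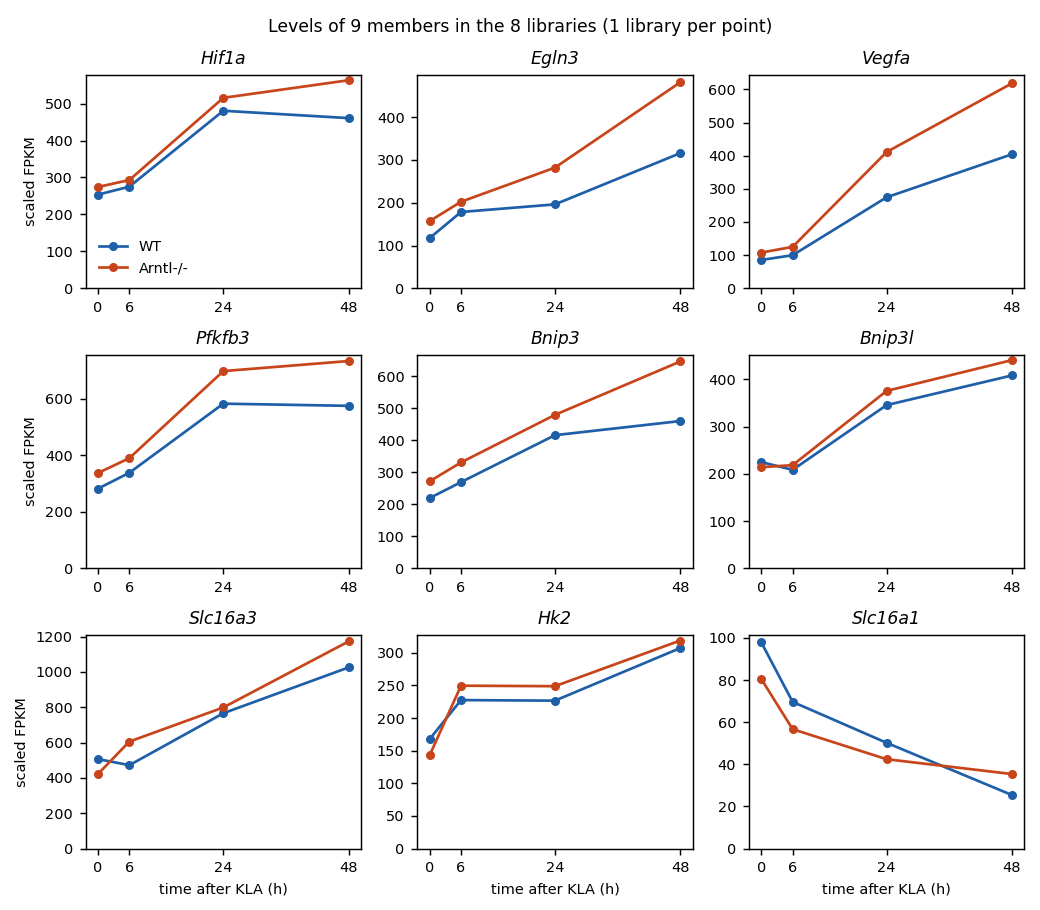
Scaled FPKM (vertical axis, from 0) of 9 members against time after KLA in hours (horizontal axis), WT in blue and Arntl-/- in orange, 1 library per point and so no error bars. Vegfa, Egln3, Pfkfb3 and Bnip3 lie higher in Arntl-/- at all 4 times, and Slc16a1 is the member with lower values at each later time in both genotypes.

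Of the hexokinases, which trap glucose as glucose 6-phosphate, Hk3 was the most abundant per length and Hk2 the least in all 8 libraries. Hk2, the inducible isoform, had 167.8, 227.5, 226.6 and 307.1 scaled FPKM in WT and 143.0, 249.5, 248.8 and 318.7 in Arntl-/-. It was already 1.36-fold higher at 6 h than at 0 h in WT and 1.74-fold in Arntl-/-, where it was the only member called at that time. Hk1, the widely expressed isoform, had 289.6 to 447.1, and at 48 h it was 1.34-fold above 0 h in WT and 1.51-fold in Arntl-/-, or 1.26-fold and 1.39-fold with level correction. Hk3 stayed between 888.9 and 1229.1. The ratio of Hk3 to Hk2 thus narrowed between 0 and 48 h, from 6.31 to 4.00 in WT and 7.39 to 3.46 in Arntl-/-. At 48 h Hk3 was 1.16-fold its 0 h value in WT and 1.05-fold in Arntl-/-, or 0.92-fold and 0.74-fold with level correction.

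Among phosphofructokinases, which catalyse the committed step, the liver and platelet isoforms outweighed the muscle isoform. Pfkl was 4.10 to 7.53 times and Pfkp 3.28 to 6.10 times Pfkm per length. Pfkm (chr15:97938902-97962878) had 56.7, 65.5, 65.7 and 75.1 scaled FPKM in WT and 74.2, 53.1, 71.7 and 118.1 in Arntl-/-. The order of the genotypes turned between times, and at 48 h Arntl-/- was 1.57-fold higher with an interval of 0.11 to 1.21 log2. Of the other genes of upper glycolysis, Gpi1, Pfkl, Pfkp, Aldoa and Aldoc differed between the genotypes by -0.30 to 0.49 log2, and Tpi1, which was called at 6 h at 0.62 log2, is described with lower glycolysis below. Pfkp, Hk3, Tpi1, Rpe and Ankrd37 each overlap a gene on the other strand, and since tags of both strands were counted, reads in the overlap cannot be assigned to either.

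Pfkfb3 (chr2:11393058-11423717) makes fructose 2,6-bisphosphate, the strongest activator of phosphofructokinase. It had 281.8, 337.9, 582.0 and 574.3 scaled FPKM in WT and 337.2, 389.5, 697.1 and 732.6 in Arntl-/-. Its course was that of a step between 6 and 24 h followed by a plateau in WT, and Arntl-/- was higher at each time by 0.26, 0.21, 0.26 and 0.35 log2. The 4 counting intervals all lay above 0, the lowest bound being 0.08 at 6 h, where level correction took the value to 0.01. At 24 h Pfkfb3 was 2.06-fold above 0 h in WT and 2.07-fold in Arntl-/-. Pfkfb4, its paralogue, had 62.6 to 100.2 and was 1.60-fold higher at 6 h than at 0 h in WT, whereas the Arntl-/- value at 6 h was 1.13-fold lower than at 0 h.

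The abundant enzymes of lower glycolysis shared one pattern. Gapdh (chr6:125111870-125116485) had 2648.3, 1762.4, 3218.9 and 4296.5 scaled FPKM in WT and 2187.4, 2722.2, 2726.7 and 4311.2 in Arntl-/-. Ldha (chr7:54101174-54110997), which turns pyruvate to lactate, had 1895.9, 1308.2, 2363.8 and 2958.7 in WT and 1624.6, 2015.3, 2141.2 and 3261.9 in Arntl-/-. Both were lowest in WT at 6 h, the deepest library, and highest at 48 h, in the 2 shallowest. The summed macrophage markers were likewise lowest in WT at 6 h and highest at 48 h in both genotypes.

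Eno1 (chr4:149611306-149622982), the enolase of glycolysis, had 2042.4, 1368.9, 2360.8 and 3136.0 in WT and 1707.4, 2087.9, 2111.9 and 3220.2 in Arntl-/-. Pgk1 (chrX:103382439-103399038), the first ATP-forming step, had 1758.0, 1214.7, 2114.7 and 2662.3 in WT and 1500.9, 1854.2, 1815.2 and 2917.8 in Arntl-/-. Tpi1 (chr6:124760610-124764314), which interconverts the triose phosphates, had 1175.0, 848.3, 1627.6 and 1931.8 in WT and 1020.1, 1305.5, 1435.3 and 2030.0 in Arntl-/-. For all of these the WT value was above Arntl-/- at 0 and 24 h and below it at 6 h.

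At 6 h these 5 genes were 1.53-fold to 1.54-fold higher in Arntl-/- than in WT, and they were the only members called between the genotypes at that time. They were 5 of 39 higher with 0 lower, beside 1.90% of all genes called higher and 1.79% called lower. With level correction none of the 39 was called, beside 1.28% of all genes higher and 0.919% lower, and the same genes had folds of 1.04 to 1.13. Among those 989 most abundant genes at large, 8.7% were at least 1.5-fold higher in Arntl-/- at 6 h before that correction and their median log2 ratio was 0.34, and the median of the 14 abundant members was 0.46. Gapdh, Aldoa, Tpi1, Pgk1, Pgam1, Eno1 and Ldha have processed pseudogenes that are close to identical, and Eno1 also overlaps Eno1b on the same strand, so how reads were divided among the copies is uncertain for these genes.

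Pgam1 and Aldoa kept to the same pattern below the 1.5-fold line, at 0.48 and 0.49 log2 at 6 h, and with level correction the direction turned, to -0.02 and -0.07. Pdk1, the kinase that holds pyruvate back from the mitochondrion, lay between 205.5 and 266.0 scaled FPKM and was higher in Arntl-/- at each time, by 0.18, 0.04, 0.25 and 0.20 log2. Ldhb did not pass the filter and had 19.0 to 33.5 scaled FPKM, so Ldha was 63.5 to 102 times as abundant per length.

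Of the 8 pentose phosphate genes 0 were called between the genotypes at any time, which is near the background, since 1.5% to 4.79% of all genes were called in either direction at each time. In the oxidative branch, which makes NADPH, G6pdx, the entry enzyme, had 401.4 to 672.9 scaled FPKM and differed by at most 0.11 log2 between the genotypes. H6pd, its counterpart in the endoplasmic reticulum, was lower in Arntl-/- at 0 h by 0.50 log2 with an interval of -0.76 to -0.24, whereas its log2 ratio was -0.17 at 6 h and 0.07 at 48 h. From 0 to 48 h H6pd was 1.56-fold higher in WT and 2.31-fold higher in Arntl-/-. Pgls also started lower in Arntl-/-, with a log2 ratio of -0.56 at 0 h and 0.37 at 6 h, on values from 244.2 to 360.2. Pgd, the second NADPH-forming enzyme of the branch, had 811.9 to 1678.3 and was highest at 48 h in both genotypes. At 48 h it was 1.73-fold above 0 h in WT and 2.05-fold in Arntl-/-. With level correction these were 1.35-fold and 1.43-fold, and the call ended in both.

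In the non-oxidative branch, which exchanges sugar phosphates with glycolysis, Taldo1 at 48 h was 0.76 log2 above 0 h in WT and 0.98 in Arntl-/-, the only one of the 4 to be called in either genotype. With level correction these values were 0.43 and 0.49, and the call ended in both. Tkt, Rpe and Rpia differed from 0 h by at most 0.36 log2 in any library. Their levels were 439.2 to 620.5 for Tkt, 137.5 to 193.9 for Rpe and 68.0 to 87.1 for Rpia.

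The further HIF-1 targets held the largest change after KLA. Vegfa (chr17:46153943-46169326), the angiogenic growth factor, had 85.4, 99.8, 274.4 and 404.1 scaled FPKM in WT and 107.7, 124.9, 410.9 and 618.0 in Arntl-/-. Both genotypes were nearly flat to 6 h and much higher from 24 h on, reaching 4.73-fold above 0 h at 48 h in WT and 5.73-fold in Arntl-/-, the largest folds of any of the 39 members. The log2 ratio of Arntl-/- to WT was 0.33, 0.32, 0.58 and 0.61, with an interval of -0.02 to 0.70 at 0 h. It was just under the 1.5-fold line at 24 h (interval 0.37 to 0.80) and past it at 48 h (0.40 to 0.83). Level correction left these ratios at 0.29 to 0.63. Vegfa was counted from 601 to 3415 tags and is not among the 989 most abundant genes.

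Bnip3 (chr7:146082519-146101189), a receptor for mitophagy, had 219.9, 269.7, 416.4 and 460.5 scaled FPKM in WT and 272.2, 331.2, 479.9 and 646.7 in Arntl-/-. Its value was higher at each later time in both genotypes and higher in Arntl-/- at each time, by 0.31, 0.30, 0.20 and 0.49 log2. The interval of the genotype ratio was -0.05 to 0.46 at 24 h and 0.21 to 0.78 at 48 h. Its relative Bnip3l had 208.5 to 440.5, and its genotypes differed by -0.07 to 0.12 log2. P4ha2 (chr11:53914426-53945169), a collagen prolyl hydroxylase, had 64.1, 67.7, 69.7 and 129.7 in WT and 43.9, 56.2, 69.8 and 136.4 in Arntl-/-. Its level at 48 h was 2.02-fold above 0 h in WT and 3.10-fold in Arntl-/-, at the time when the summed stromal markers, which include collagen genes, were also highest.

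P4ha1, the paralogue, ranged from 299.7 to 479.2 scaled FPKM. Ndrg1, a stress-responsive HIF-1 target, had 201.4 to 349.7 and was lowest at 24 h in both genotypes. Ankrd37, an ankyrin repeat gene, had 73.3 to 131.3. Adm, which encodes the vasodilator adrenomedullin, was counted with only 10 to 39 tags and no ratio is read from it.

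After KLA the members as a group were higher late. At 6 h, 2 of the 39 were at least 1.5-fold higher than at 0 h in WT (Egln3 and Pfkfb4) and 1 was lower (Gapdh), beside 4.33% and 3.15% of all genes, and in Arntl-/- 1 was higher and 0 lower, beside 2.75% and 2.65%. With level correction Gapdh at 6 h in WT was at 0.043 log2, leaving 2 higher and 0 lower, beside 3.69% and 2.04% of all genes, and in Arntl-/- the counts were the same, beside 3.11% and 1.7%. At 24 h, 7 were higher and 1 lower in WT, beside 7.80% and 7.79% of all genes. These 7 were Hif1a, Egln3, Slc16a3, Pfkfb3, Vegfa, Bnip3 and Bnip3l, and all 7 were also called in Arntl-/-, where 11 were higher and 1 lower, beside 7.31% and 8.55%. With level correction 7 were higher and 1 lower at 24 h in WT, with Pfkfb4 in and Slc16a3 out (8.34% and 7.18% of all genes), and 10 were higher and 1 lower in Arntl-/- (7.46% and 8%).

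At 48 h, 24 of the 39 were higher and 1 lower in WT, beside 12.3% and 14.2% of all genes, and 27 were higher and 1 lower in Arntl-/-, beside 14.6% and 16.5%. The median log2 change of the members at 48 h was 0.65 in WT and 0.92 in Arntl-/-, while that of all genes was 0.00 and -0.01. These counts rested in part on the 14 abundant members, of which 11 were called higher at 48 h in WT and 12 in Arntl-/-, beside 21.3% and 37.7% of the 989 most abundant genes. With level correction 12 members were higher and 1 lower in WT, beside 12.1% and 12.7% of all genes, 13 were higher and 1 lower in Arntl-/-, beside 13.2% and 14.2%, and the medians were 0.34 and 0.46. The members that stayed called in both genotypes with that correction were Hif1a, Egln3, Slc16a3, Hk2, Aldoc, Pfkfb3, H6pd, Vegfa, Bnip3, Bnip3l and P4ha2. They thus comprised HIF-1 alpha, PHD3, the lactate exporter, the inducible hexokinase, aldolase C, the PFKFB regulator, H6pd and HIF-1 targets outside metabolism, and of the abundant enzymes of lower glycolysis none.

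**Figure D2:**
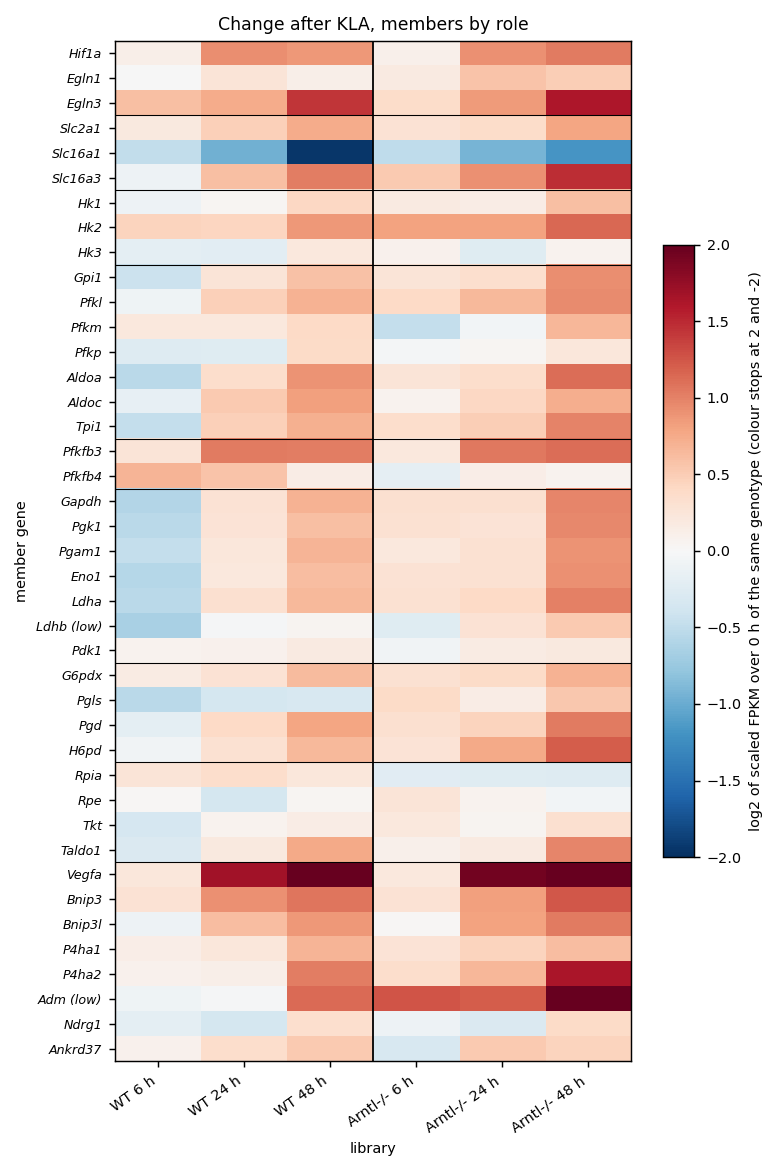
Log2 ratio of scaled FPKM to 0 h of the same genotype for the 41 members (rows, grouped by role, lines between groups) at 6, 24 and 48 h in WT (left 3 columns) and Arntl-/- (right 3 columns), red for higher and blue for lower, with colours ending at 2 and -2. Vegfa passes the end of the scale at 48 h in both genotypes, Slc16a1 is blue throughout, and Gapdh, Pgk1, Pgam1, Eno1 and Ldha are blue only in WT at 6 h. Adm and Ldhb did not pass the filter and are marked low.

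**Figure D3:**
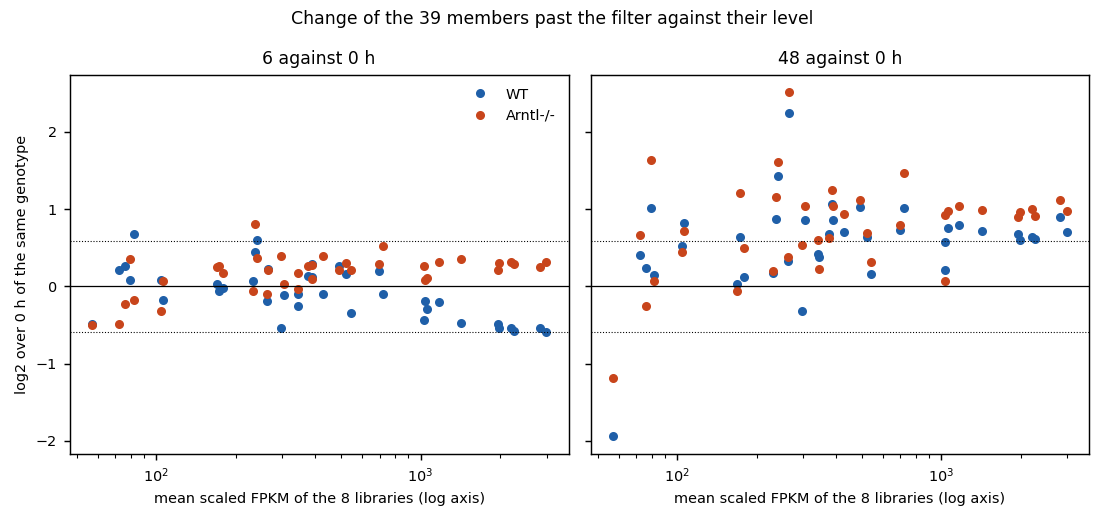
Log2 ratio to 0 h (vertical axis) against mean scaled FPKM over the 8 libraries (horizontal log axis) for the 39 members past the filter, at 6 h (left) and 48 h (right), WT in blue and Arntl-/- in orange, dotted lines at 1.5-fold. At 6 h the WT points of Gapdh, Pgk1, Pgam1, Eno1 and Ldha lie between -0.59 and -0.48 while those of Arntl-/- lie between 0.22 and 0.32, and at 48 h these genes lie above 0 in both.

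Between the genotypes, few members passed the 1.5-fold line. At 0 h, 0 of 39 were higher and 0 lower in Arntl-/-, beside 2.44% and 1.5% of all genes, or 1.88% and 1.81% with level correction, where the counts were again 0 and 0. At 24 h, 0 were higher and 0 lower, beside 2.92% and 2.04%, and with level correction the counts were the same, beside 2.27% and 2.63%. At 48 h, 3 were higher (Egln3, Pfkm and Vegfa) and 0 lower, beside 4.79% and 4.7%, and the same 3 and no others were called with level correction, beside 4.52% and 4.8%. The members' median log2 ratio was -0.11, 0.21, 0.00 and 0.07 at 0, 6, 24 and 48 h. After level correction it was 0.05, 0.05, 0.09 and 0.13.

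Direction gave a further description. Of the 39 members, 8 were higher in Arntl-/- than in WT at all 4 times, beside 8% of all genes, and 0 were lower at all 4 times, beside 7.37%. They were Hif1a, Egln3, Aldoc, Pfkfb3, Pdk1, Vegfa, Bnip3 and Ndrg1. The summed neutrophil markers were also higher in Arntl-/- at all 4 times, at 942 against 528 in WT at 0 h but 943 against 928 at 48 h. At 48 h S100a8 and S100a9 were each slightly lower in Arntl-/-. The part of the neutrophil markers in the direction of the members was not tested. With level correction 10 were higher at all 4 times, beside 7.89%, and 0 lower, beside 9.13%, and Egln3, Pfkfb3, Vegfa, Bnip3 and Ndrg1 were in both sets. Without the 6 h libraries, which include the deepest, 10 members were higher at the other 3 times, beside 18.1% of all genes, and 5 were lower, beside 22.1%. The mean log2 ratio over the 4 times was 0.46 for Vegfa, 0.43 for Egln3, 0.32 for Bnip3, 0.27 for Pfkfb3 and 0.15 for Hif1a.

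**Figure D4:**
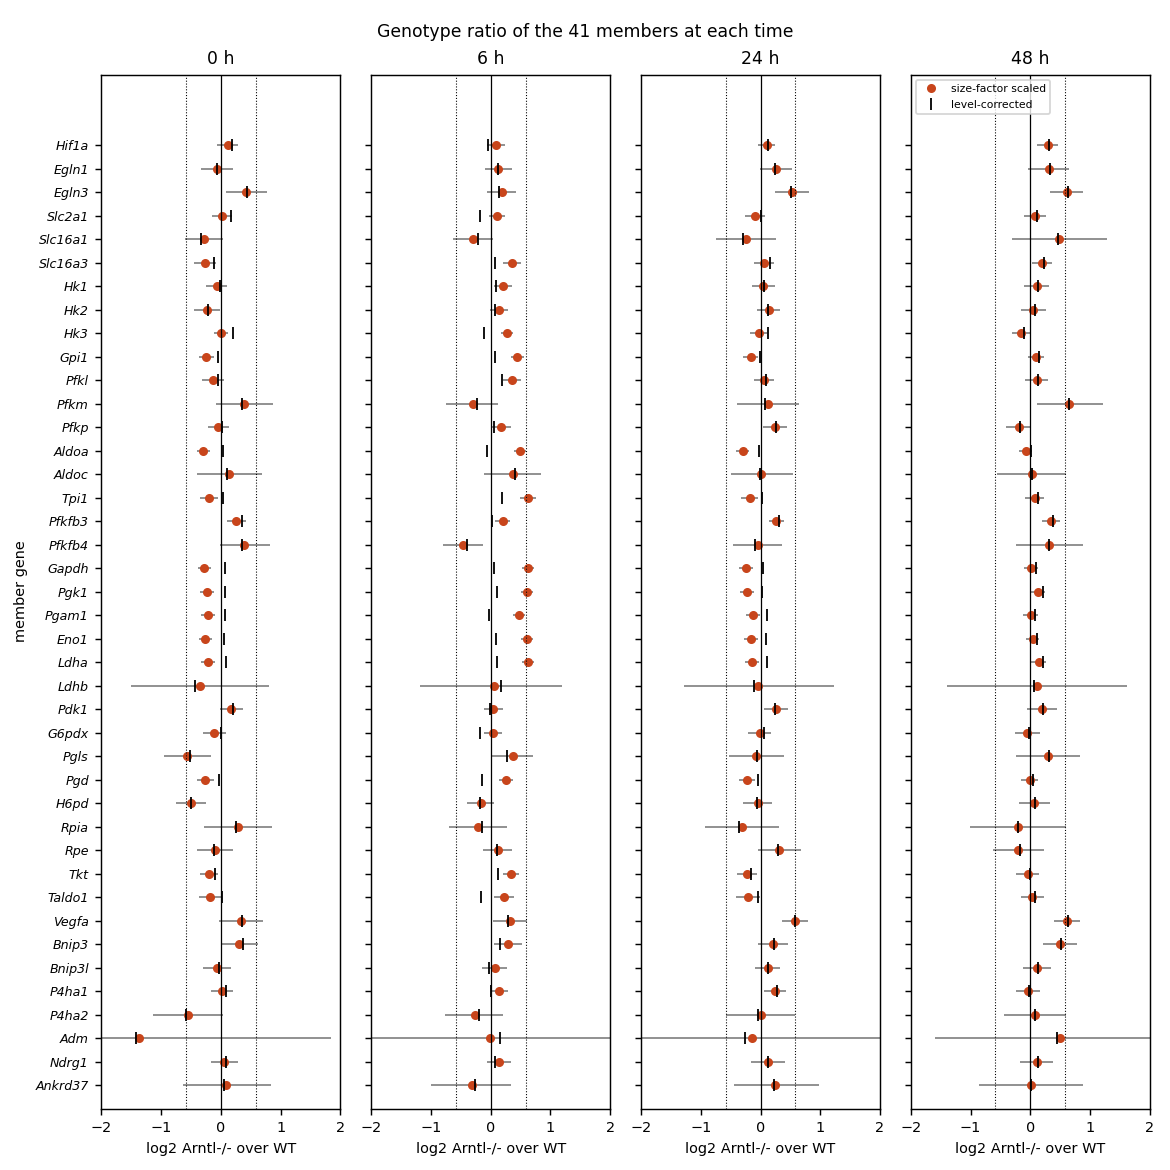
Log2 ratio of Arntl-/- to WT (horizontal axis) for the 41 members (rows) at 0, 6, 24 and 48 h (panels). Points are size-factor scaled values with 95% counting intervals, cut at 2 and -2, black ticks are level-corrected values and dotted lines mark 1.5-fold. Vegfa, Egln3, Pfkfb3 and Bnip3 lie above 0 in every panel, while Gapdh, Pgk1, Eno1 and Ldha move from below 0 at 0 h to past the 1.5-fold line at 6 h with ticks that stay near 0.

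Other genes of the same pathways were counted from 4 lists. Of 25 further HIF-1 targets, 19 passed the filter, and at 48 h 13 of these were at least 1.5-fold higher and 1 lower (Tfrc) than at 0 h in each genotype, beside 12.3% and 14.2% of all genes in WT and 14.6% and 16.5% in Arntl-/-. The median was 0.79 log2 in WT and 0.90 in Arntl-/-, and with level correction the order turned, to 0.86 and 0.84. At 24 h, 9 were higher and 0 lower in WT, beside 7.8% and 7.79% of all genes, and 7 were higher and 1 lower (Tfrc) in Arntl-/-, beside 7.31% and 8.55%. Between the genotypes 0 of the 19 were called at 0 h, and 1 was higher (Rora) and 1 lower at 6 h, beside 1.9% and 1.79% of all genes. At 24 h 1 was higher (Car9) and 1 lower (Loxl2), beside 2.92% and 2.04%. At 48 h 5 were higher in Arntl-/- (Hilpda, Higd1a, Mxi1, Ddit4 and Gys1) and 1 lower, beside 4.79% and 4.7%. Hilpda, a lipid droplet protein, had 217.8, 226.4, 242.2 and 365.2 scaled FPKM in WT and 272.2, 296.5, 288.2 and 562.7 in Arntl-/-. Hilpda was the higher in Arntl-/- at each time. Lox, a collagen crosslinking enzyme, had the second highest mean ratio of this list and Loxl2, its relative, the second lowest.

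Of 14 regulators of HIF, 11 passed. Between the genotypes 1 was higher in Arntl-/- at 6 h (Tceb2), beside 1.9% of all genes, 1 was lower at 24 h (Siah2), beside 2.04%, and 0 were called at 0 or 48 h, counts too small to set apart from these shares. Tceb2, a partner of the VHL ubiquitin ligase, and Egln2, another prolyl hydroxylase, had the highest mean ratios, and Hif1an, the asparaginyl hydroxylase, and Vhl itself the lowest. Vhl had 69.9, 93.1, 113.1 and 89.7 scaled FPKM in WT and 73.6, 70.6, 107.5 and 94.3 in Arntl-/-, which overlapped.

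Of 35 other genes of glycolysis and glycogen, 21 passed, and 1 was higher and 0 lower in Arntl-/- at each of the 4 times, a different gene each time (Eno2, Khk, Bpgm and Gys1 in order). The share of all genes called higher was 2.44%, 1.9%, 2.92% and 4.79%, so 1 of 21 was near it. At 48 h, 7 were higher and 1 lower (Adpgk) than at 0 h in each genotype, beside 12.3% and 14.2% of all genes in WT and 14.6% and 16.5% in Arntl-/-. Gys1, the glycogen synthase also held in the list of HIF-1 targets, had 73.3, 94.0, 133.8 and 159.4 scaled FPKM in WT and 68.0, 113.6, 175.4 and 251.6 in Arntl-/-. Its value was higher at each later time in both genotypes, and only at 48 h was it past the 1.5-fold line between them. Bpgm, which makes 2,3-bisphosphoglycerate, followed Gys1 in mean ratio, and the phosphoglucomutase genes Pgm1 and Pgm2l1 had the lowest.

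Of 11 other genes of the pentose phosphate and ribose pathways, 7 passed, and against 0 h 1 was higher (Idnk) and 2 lower (Prps1 and Prps2) at 48 h in WT, beside 12.3% and 14.2% of all genes. In Arntl-/- 1 was higher (Idnk) and 3 lower (Prps1, Prps2 and Prpsap2), beside 14.6% and 16.5%. Between the genotypes Idnk was called higher in Arntl-/- at 0 h, by 0.63 log2, beside 2.44% of all genes. Prps1 was called lower at 24 h, with a log2 ratio of -0.81, beside 2.04%, and no other of the 7 was called at any time. Idnk then had 146 tags in WT and 333 in Arntl-/-, and Prps1 had 123 and 105. These are low counts, and no interval is given for either gene. Prps1, which makes the ribose donor for nucleotides, had 66.5, 41.9, 37.4 and 16.0 in WT and 62.5, 50.2, 21.3 and 19.0 in Arntl-/-. Its value was lowest at 48 h in both genotypes, on only 42 tags in WT and 48 in Arntl-/-. Prps1 and Prps2 had the lowest mean ratios of this list and Idnk, a gluconate kinase, and Tigar, listed as 9630033F20Rik, the highest. Idnk had 47.1, 72.9, 85.8 and 86.2 in WT and 73.0, 98.1, 100.3 and 123.6 in Arntl-/-, the higher of the pair at each time.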

How the data were processed

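PolyA RNA-seq of 8 BMDM libraries was used, 1 for each genotype and time; the ChIP-seq samples of the series were not analysed here. The authors aligned paired-end reads to mm9 with STAR and counted tags on exons of RefSeq genes with HOMER on both strands, with at most 3 tags per position and 1 transcript per gene, and the FPKM values they deposited are normalized to 1e+07 tags. Versions are not given in the sources used here. Of the value columns, 4 match no sample and were not used, and 1 broken line was left out.

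FPKM times exon length in kb fell on whole multiples of 1 tag for 100% of the low values examined (within 0.15 of a whole number), which gave the depth of each library, 8587560 to 27036786 tags on genes. The tags behind each value served for depth and counting intervals only. Genes with 6 tags outnumbered those with 5 or 7 in every library, so tags are not independent fragments, and the 95% intervals (Clopper-Pearson on the ratio) took 6 tags as 1 fragment, the fewest fragments the tags allow.

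Size factors by the median of ratios over the 8 libraries scaled the values, and genes with a mean of at least 50 scaled reads (scaled FPKM times kb) were kept. Log2 ratios used a pseudocount of 0.1, which understates the change of low genes. A difference was called at 1.5-fold. The level-corrected values subtract, in each library, a lowess curve (fraction 0.3) of log2 deviation on mean level. As each condition had a single library, conditions were compared without a test. Other scalings, pseudocounts and filters were tried as alternatives. The steps were run on simulated data with independent tags. The simulation had no cap of 3 tags per position and no relation of depth to level, so it could not test how the steps handle these. Curves were fitted with statsmodels 0.14.6 and figures drawn with matplotlib 3.10.9, under Python 3.11.15 with pandas 2.3.3, scipy 1.17.1 and numpy 2.4.6.

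All members are named. A value in every library is given for Hif1a, for each member past the filter with a 1.5-fold or larger genotype difference at any time, and for each at least 2-fold away from 0 h in the same direction at the same time in both genotypes, 14 members in all; Hk2 was given so after its values were seen. In each of the other pathway lists the 2 genes with the highest and the 2 with the lowest mean log2 ratio of Arntl-/- to WT are named, with the genes called in 1 comparison; 1 gene that this rule names is not reported here. The members and lists were chosen with earlier results of these data known.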

Additional observations from a re-analysis of the deposited data

How the results depend on the processing

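Counts and medians of the members were recomputed under 7 alternatives: values as deposited, upper-quartile scaling, level correction, pseudocounts of 1 and 0.01, no minimum on reads, and a mean of at least 100 scaled reads. Level correction moved most. Between the genotypes at 6 h the count higher in Arntl-/- went from 5 to 0; against 0 h the count lower in WT at 6 h went from 1 to 0, with Gapdh in WT turning to 0.043 log2, and the counts higher at 48 h went to 12 in WT and 13 in Arntl-/-. Level correction also moved the median log2 change from 0 h to 0.34 in WT at 48 h, and to 0.077, 0.19 and 0.46 in Arntl-/- at 6, 24 and 48 h. Without size factors, at 6 h 0 members were higher and 1 lower in Arntl-/- than in WT, 1 was higher at 24 h, 0 were lower at 6 h than at 0 h in WT and 14 were higher at 48 h in WT. With upper-quartile scaling, 1 was lower in Arntl-/- at 0 h, and in WT at 6 h 1 was higher and 2 were lower. With no minimum on reads, 1 was lower in Arntl-/- at 0 h, 2 were lower in WT at 6 h and 2 were higher in Arntl-/- at 6 h. Without the 6 h libraries, an alternative chosen after seeing the data, 5 members rather than 0 were lower in Arntl-/- at all times left. The counts at 48 h between the genotypes were within 1.5 times of the main value under all 7 alternatives. The cause was not tested. The labels carry no replicate numbers, so libraries could not be paired by replicate. The genotypes could be paired by time, but a model of genotype over the 4 times, with time as the block, was not fitted. Libraries without replicates limit every comparison: the intervals cover counting alone, and the cap of 3 tags per position bears on the abundant glycolytic genes, with a part in their values that was not tested.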
